A study of Homo sapiens with 6 samples.

Results

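The genes described here are the mRNA genes that carried at least 1 listed LARP1 site in the growing condition, in the mTOR-inactive condition, or in both. LARP1 sites were taken from PAR-CLIP, in which RNA labelled with 4-thiouridine is crosslinked to protein by UV light, the protein is immunoprecipitated, and the RNA beneath it is sequenced. Every site on a RefSeq mRNA accession was assigned to its gene, and the RPM (reads per 1000000 mapped reads) of the gene's sites were summed, each distinct value counted once per gene. Of 3654 genes with a listed site on any RNA, 3066 had one on an mRNA, and 17900 mRNA genes were present in the matching mRNA-seq table. Of the 3066, 1364 (44.5%) were listed only in growing cells, 1319 (43.0%) only after PP242, and 383 (12.5%) in both.

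All libraries came from HEK293T, a human embryonic kidney cell line, and the study asked how inhibition of mTOR changes which mRNAs LARP1 binds. For PAR-CLIP, 1 growing culture and 1 culture given 2.5 µM PP242, an ATP-competitive inhibitor of the mTOR kinase, were both labelled with 100 µM 4-thiouridine for 14 hr and crosslinked at 150 mJ/cm2. For mRNA-seq, 2 growing and 2 PP242 libraries (2.5 µM) were made without 4-thiouridine. The duration of PP242 is not given in the sources used here, the protein was precipitated from a single line, and with 1 PAR-CLIP library per condition every binding value below is a description with no replicate check and no test.

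LARP1 is a La-related RNA-binding protein that associates with mRNAs starting with a terminal oligopyrimidine (TOP) tract, a cytosine followed by a run of pyrimidines at the 5’ end. Ribosomal protein (RP) genes and the translation elongation factors are the classic TOP genes. mTOR complex 1 phosphorylates LARP1, and translation of TOP mRNAs is known to depend on mTOR activity. Among the HEK293T marker genes, 6 of 6 were at or above 1 RPKM (6.79 to 239 RPKM). Of 6 markers of other cell types, 4 were present in the table, of which COL1A1 alone reached 1 RPKM (highest 1.84), and PTPRC, ALB and GFAP were near 0. The marker levels summed to 310 to 315 RPKM in growing libraries and to 342 RPKM in each PP242 library for HEK293T, and to 1.98 to 2.02 and 1.90 to 1.96 RPKM for the other cell types, and their part in the results was not tested. LARP1 itself had no listed site, and its mRNA was 54.7 ± 0.955 RPKM in growing and 53.6 ± 0.173 RPKM in PP242 libraries (SD, n = 2 each; log2 difference -0.03, adjusted p = 0.512, limma with Benjamini-Hochberg adjustment).

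Most listed genes carried only a trace of signal, and the recovered LARP1 RNA lay on few genes. The mRNA sites summed to 265384 RPM in growing and 285763 RPM in PP242 cells. The median gene stood at 0.0053 RPM in growing and 0.0177 RPM in PP242. In growing cells 1511 of 1747 listed genes (86.5%) lay under 1 RPM and held 0.0164% of the summed mRNA RPM, and after PP242 1252 of 1702 (73.6%) lay under it and held 0.0279%. Between 0.5 and 2 RPM there were 43 growing and 54 PP242 genes, around the 1 RPM minimum used below. The genes just inside it were at 1.09 RPM in growing and 1.06 RPM after PP242, and those just outside at 0.991 and 0.975 RPM.

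**Figure D1:**
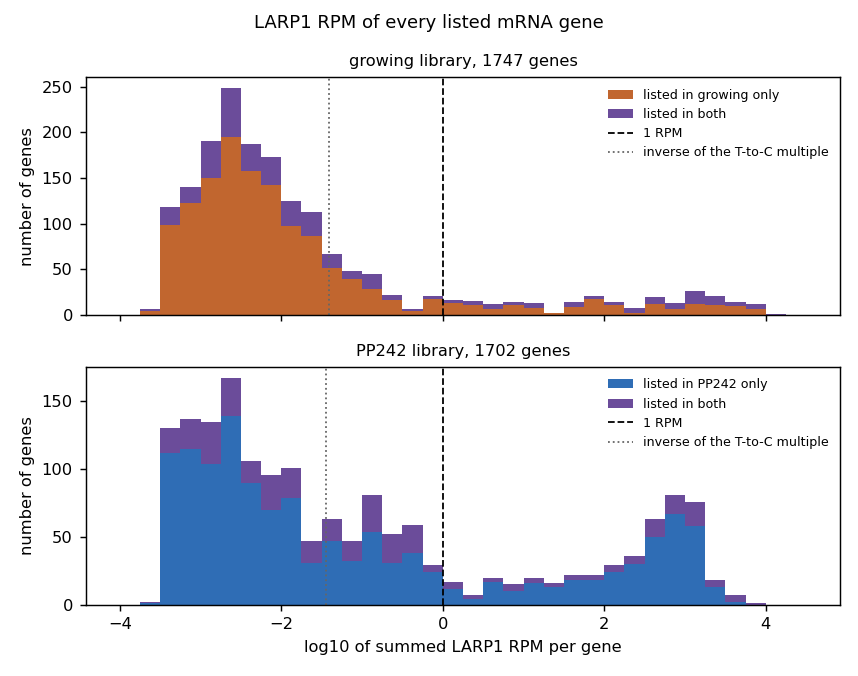
Number of mRNA genes (vertical axis) by the log10 of summed LARP1 RPM (horizontal axis) in the growing and the PP242 library, split into genes listed in that condition only and in both. In each library most genes lie under 1 RPM (1511 of 1747 and 1252 of 1702), and the rest range over several powers of 10 above it.

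More genes carried strong LARP1 signal after PP242 than in growing cells, although slightly fewer were listed (1702 against 1747). At least 100 RPM was found on 129 growing genes and on 311 PP242 genes, and at least 1000 RPM on 74 and on 102. In growing cells 22 genes held 50% of the mRNA RPM, and after PP242 70 genes did. The highest gene was RPS18, a small-subunit ribosomal protein, in both libraries, at 16943 RPM in growing cells and 5862 RPM after PP242.

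From here on a gene is called bound at or above 1 RPM, and listed at any value. At this minimum 632 genes were left, of which 182 (28.8%) were bound in growing cells only, 396 (62.7%) after PP242 only, and 54 (8.54%) in both. Of them 179, 392 and 53 were in the mRNA-seq table, which is 1.00%, 2.19% and 0.296% of its 17900 mRNA genes. Genes bound after PP242 only thus outnumbered those bound in growing cells only, whereas without the minimum the classes were of near equal size. The growing-only genes of this set held 65.0% of the growing RPM, and the PP242-only genes 79.0% of the PP242 RPM. The 54 genes bound in both held 35.0% and 21.0%. With a minimum of 10 RPM the classes held 135, 347 and 44 genes.

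Trace sites decided many class memberships. Of the 383 genes listed in both libraries, 254 were under 1 RPM in both, 31 reached 1 RPM in growing cells only and 44 after PP242 only. In 38 of those 44 the growing value, and in 19 of the 31 the PP242 value, was lower than 0.0388 RPM (growing) or 0.0353 RPM (PP242), which is what 1 read would be worth if the deposited T-to-C column is scaled by the mapped reads of the library. That scale is not given in the sources used here. By the same measure 1313 (75.2%) of the growing genes and 951 (55.9%) of the PP242 genes were below the value of 1 read.

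**Figure D2:**
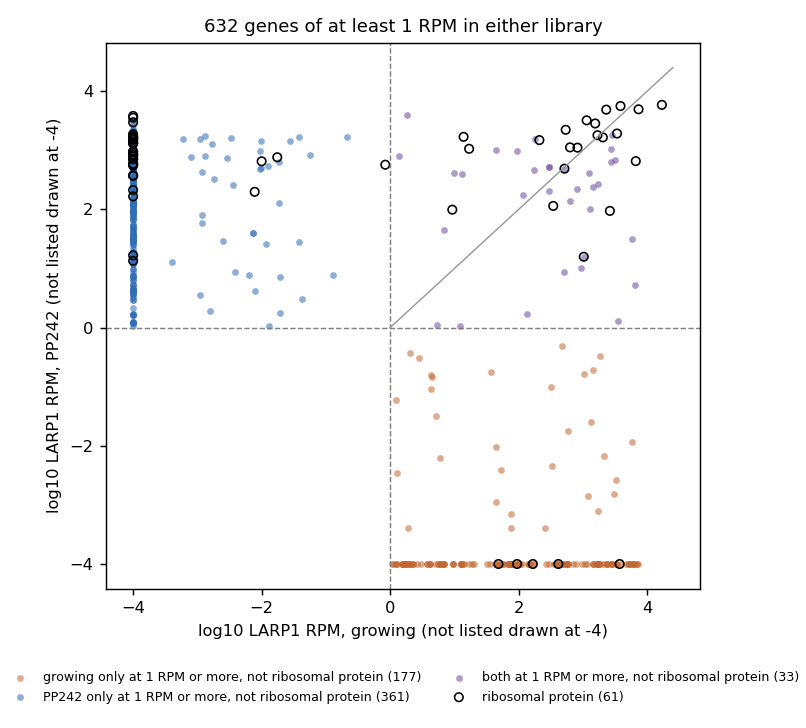
The log10 of LARP1 RPM in growing cells (horizontal axis) against that after PP242 (vertical axis) for the 632 mRNA genes of at least 1 RPM in either library, with genes not listed in a library drawn at -4 and ribosomal protein genes marked. The 21 RP genes at or above 1 RPM in both libraries lie near the diagonal more often (13 of 21 within 4-fold) than the other 33 genes (10 of 33).

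Among genes with no listed site after PP242, the 8 with the most signal came from different functional groups, with no ribosomal protein among them. PPM1G, a protein phosphatase, had 7186 RPM at a single site in its 3’UTR (NM_177983.1, nucleotides 2204 to 2227) in growing cells and no listed site after PP242. NCAPG2, a condensin II subunit, had 6975 RPM on a CDS site, and C17orf61 6725 RPM, also in the CDS. C7orf55 had 6226 RPM in the 3’UTR. The next were HSP90B1, the endoplasmic reticulum chaperone GRP94, at 6099 RPM, OAZ1, the antizyme that limits polyamine synthesis, at 5961 RPM, and the trafficking adaptor TOM1L1 at 5919 RPM, each from a CDS site. THRAP3, a splicing and transcription cofactor, had 5322 RPM at nucleotides 171 to 193 of NM_005119.3, in the 5’UTR. Each of these 8 genes had the T-to-C amount usual for its RPM, which is the fixed multiple of RPM that the T-to-C column holds at most sites.

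Of the 8 genes with the most signal after PP242 and no listed site in growing cells, 5 belong to the translation apparatus. RPL29 had 3807 RPM (74.6% of the usual T-to-C amount at its leading site) and RPL7A 3545 RPM, and both large-subunit proteins were absent from the growing list. RPLP1, an acidic stalk protein of the large subunit, had 2983 RPM, and TMA7, a ribosome-associated factor, 2644 RPM. EEF1G, the gamma subunit of the elongation factor 1 complex, had 2017 RPM. The other 3 of the top 8 were the endoplasmic reticulum chaperone CALR (3131 RPM), the histone-binding ANP32B (2291 RPM) and the endosomal GTPase RAB21 (2208 RPM). The leading sites of RPL29 and EEF1G lay in the CDS and those of the other 6 genes in the 3’UTR.

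Genes listed in both were headed by ribosomal proteins, together with genes whose signal differed widely between the libraries. RPS18 was followed by RPL30 (7337 RPM in growing cells and 4933 RPM after PP242). RPL18 had 3843 and 5598 RPM, and RPL37 2307 and 4867 RPM, so these 4 large- and small-subunit genes stayed within a 4-fold range. RPS27 went from 6648 to 654 RPM, but its leading 3’UTR site (NM_001030.4, nucleotides 317 to 338) carried few T-to-C changes, at 0.728% and 0.173% of the usual amount. IPO7, a nuclear import receptor, had 6476 RPM in growing cells and 5.19 RPM after PP242. SSR1, a subunit of the translocon-associated complex, had 5905 and 31.7 RPM, and SEC22B, a vesicle SNARE, 5823 and 0.0115 RPM.

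LARP1 RPM was at least 4-fold higher after PP242 in 409 genes (64.7%) and at least 4-fold lower in 200 (31.6%), a gene absent from a library being set to the lowest value listed there. These counts largely restate the classes, since nearly any gene bound in 1 library only is past 4-fold by construction. Of the 54 genes bound in both, 13 were at least 4-fold higher, 18 at least 4-fold lower and 23 within 4-fold. Among them 24 were higher and 30 lower after PP242, with a median ratio of 0.740 (interquartile range 0.174 to 2.78). The 21 RP genes among them had a median ratio of 1.34, with 12 higher and 9 lower, and the other 33 a median of 0.336, with 12 higher and 21 lower. The widest ratios among genes listed in both rested on trace sites in one library. SPTAN1, the spectrin alpha chain, had 1689 RPM in growing cells and 0.0008 RPM after PP242, and RPP30, a ribonuclease P subunit, 3261 and 0.0026 RPM. MFSD8 had 3080 and 0.0015 RPM, SLC46A1 1213 and 0.0014 RPM and SLC26A2 259 and 0.0004 RPM, and the leading growing sites of MFSD8 and SLC26A2 carried 1.09% and 0.007% of the usual T-to-C amount. In the other direction, UBA6, a ubiquitin-activating enzyme, had 0.0006 RPM in growing cells and 1530 RPM after PP242. CBL, a ubiquitin ligase, had 0.0011 and 1569 RPM, DTL 0.0013 and 1756.5 RPM, TRIM65 0.0008 and 762 RPM, PLEKHA7 0.0017 and 1265 RPM, and RCC2 0.0013 and 809 RPM.

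A gene listed in both was not always bound at the same place. Of the 383 genes listed in both, 158 shared at least 1 site of identical position (200 distinct sites), and 225 shared none. At or above 1 RPM in both libraries, 30 sites on 26 genes coincided, and 23 of the 54 genes, 12 of them among the 21 RP genes, had the same leading site. Of the 30 sites, 12 were higher and 18 lower after PP242, with a median ratio of 0.735. The RPS18 site at nucleotides 76 to 105 of NM_022551.2 (CDS) had 11087 RPM in growing cells and 5862 RPM after PP242. The RPL18 site at 607 to 628 of NM_000979.2 (3’UTR) had 3843 and 2747 RPM, and the RPL37 site at 167 to 189 of NM_000997.4 (CDS) 2307 and 4867 RPM. RPLP0, the stalk protein, had 1684 and 1797 RPM at its shared site, and RPS15 17.0 and 1059 RPM. Sites that were lower after PP242 included those of RPL9 (2457 and 35.7 RPM) and HM13, a signal peptide peptidase (1743 and 270 RPM). The sites of the glycolytic enzyme TPI1 (505 and 8.78 RPM) and the mitotic checkpoint protein BUB3 (136 and 1.69 RPM) were lower too. PPIA, cyclophilin A, had 178 and 1545 RPM, and FAM108B1 10.0 and 414 RPM.

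Of 79 RP genes measured, 61 (77.2%) were bound at or above 1 RPM, against 3.49% of all mRNA genes. Of the 79, 5 were bound in growing cells only, 35 after PP242 only and 21 in both. Thus 26 were bound in growing cells and 56 after PP242, where over all mRNA genes in the table the numbers were 232 and 445, so the increase in number was near that of all genes. Their summed signal was 58117 RPM in growing cells and 81717 RPM after PP242. The large-subunit list (47 genes; 3, 20 and 10) summed to 26311 and 52339 RPM, and the small-subunit list (32 genes; 2, 15 and 11) to 31806 and 29378 RPM. RPS18 alone gave 16943 and 5862 RPM of the small-subunit sums.

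Of the RP genes, RPL35A (3728 RPM), RPS3 (414 RPM), RPL5 (166 RPM) and RPS10 (94.5 RPM) were among those bound in growing cells and not listed after PP242. RPS7 (1750 RPM after PP242), RPS16 (1525 RPM) and RPL22 (1876 RPM) are examples of those not listed in growing cells. RPS12 had 13.9 and 1687 RPM, and RPL26 210 and 1485 RPM. RPS6, the ribosomal target of S6 kinase, had 2045 and 1651 RPM, and RPL15 1142 and 3211 RPM. RPL13 had 1032 and 15.8 RPM, so individual RP genes lay on either side of the list's sum. Many RP genes have processed pseudogenes, so their values are uncertain where reads could be split among copies.

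Of 16 elongation factors and other TOP genes, 6 were bound after PP242 only, 2 in both and 0 in growing cells only, where 62.7% of all 632 bound genes were PP242 only. The sum of the list was 1451 RPM in growing cells and 11887 RPM after PP242. GNB2L1, the ribosomal scaffold RACK1, had 1.85 and 3978 RPM. PABPC1, the cytoplasmic poly(A)-binding protein, had 0.0377 and 1675 RPM at one 5’UTR site, nucleotides 154 to 187 of NM_002568.3. EEF1A1, elongation factor 1 alpha, had no listed site in growing cells and 1403 RPM after PP242, and EEF2 had 550 RPM after PP242 only. The intermediate filament gene VIM had 1707 RPM after PP242 only. TPT1, the tumour protein TCTP, was the bound gene of the list that was lower, at 1449 and 236 RPM.

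Of 41 initiation factors, 2 (4.88%) were bound in growing cells only, 3 (7.32%) after PP242 only and 1 (2.44%) in both. Over all 17900 mRNA genes these shares were 1.00%, 2.19% and 0.296%, the background for every list of this paragraph. EIF4G2, an eIF4G relative, had 1867 and 0.330 RPM, and EIF4A1, an RNA helicase of the eIF4F complex, 937 and 10.2 RPM, whereas its paralog EIF4A2 had no listed site in growing cells and 1496 RPM after PP242. EIF4EBP1, the eIF4E-binding repressor of translation that mTOR phosphorylates, had 296 RPM after PP242 only. Of 21 poly(A)-binding, deadenylation and La-related genes, 1 was bound in growing cells only and 3 after PP242 only, which were PABPC1, counted in the TOP list too, the deadenylase CNOT7 (998 RPM) and SSB, the La protein (592 RPM). Of 20 aminoacyl-tRNA synthetases, YARS alone was bound, at 32.1 RPM after PP242.

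Of 23 heat shock proteins and chaperonins, 1 was bound in growing cells only, 1 in both and 8 after PP242 only, the class that holds 62.7% of all bound genes. The 8 included the chaperonin CCT8 (1720.0 RPM), the mitochondrial HSPA9 (1542 RPM), HSP90AB1 (1129 RPM) and HSPH1 (1118 RPM). HSPA5, the endoplasmic reticulum chaperone BiP, was bound in both at 95.6 and 959.9 RPM. HSP90B1 was the gene bound in growing cells only. The list summed to 6195 RPM in growing cells, nearly all from HSP90B1, and to 8164 RPM after PP242.

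In 3 of the lists with more signal in growing cells, 1 to 3 genes held most of it. Other lists with more growing signal included splicing factors (5322 and 2140 RPM) and glycolysis (3367 and 1866 RPM). Over all mRNA genes, 1.00% were bound in growing cells only, 2.19% after PP242 only and 0.296% in both. Of 43 nucleolar ribosome biogenesis genes, 3 (6.98%) were bound in growing cells only and 2 (4.65%) after PP242 only, and the sum was 3492 and 520 RPM. RRS1, a large-subunit assembly factor, gave 3445 RPM of the growing sum from a site with 0.097% of the usual T-to-C amount. Of 44 chromatin and transcription regulators, 7 (15.9%) were bound in growing cells only and 2 (4.55%) after PP242 only. Their sum was 5115 and 1066 RPM, of which CDK12, a transcriptional kinase, gave 3294 growing RPM (1.57% of the usual T-to-C amount) and HMGB2 1690.2 growing RPM (0.061%), and HDAC1 1041 RPM after PP242. The cytoskeletal list, 1, 2 and 5 of 31 genes, summed to 6753 and 3602 RPM. TUBB, a beta tubulin, had 3546 and 1.27 RPM, and the near-identical TUBA1A and TUBA1B carried the same values of 299 and 531 RPM, so their reads cannot be assigned to one of them.

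Among 35 components of the mTOR pathway, 1 (2.86%) was bound in growing cells only and 3 (8.57%) after PP242 only, with sums of 5189 and 1416 RPM. Over all mRNA genes the shares were 1.00% and 2.19%. LAMTOR1, which anchors the Ragulator complex to the lysosome, had 5189 RPM in its 3’UTR in growing cells and no listed site after PP242. RPS6KB2, an S6 kinase, had 1026 RPM in its CDS after PP242 only, and PDCD4, an eIF4A inhibitor, 94.0 RPM after PP242 only. LAMTOR1 thus gave the growing sum of this list, and had no part in its PP242 sum.

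The remaining lists held small numbers of bound genes. Over all mRNA genes 3.49% were bound, 1.00% in growing cells only and 2.19% after PP242 only. The bound share was higher in glycolysis (16.7%), splicing factors (15.4%) and RNA helicase and decay genes (10.9%), among others. It was lower in sterol and fatty acid synthesis (0%) and the ZNF genes (0.805%), among others. Of 71 nuclear-encoded oxidative phosphorylation genes, 1 was bound in growing cells only and 5 after PP242 only, and of 76 mitochondrial ribosomal proteins 1 and 2. Of 31 proteasome subunits 1 and 3 were, and of 39 hnRNP and SR splicing factors 1 and 5. Glycolysis had 0, 1 and 2 of 18 genes, with LDHB, a lactate dehydrogenase, at 2862 and 1789.7 RPM. RNA helicase and decay genes had 1, 3 and 1 of 46, with DDX17 at 2879 RPM in growing cells only and ILF2 at 43.7 and 1024 RPM. Sterol and fatty acid synthesis had 0 of 25 genes, and the zinc finger genes named ZNF 1 and 3 of 497. Outside all 24 lists, 149 genes were bound in growing cells only, 304 after PP242 only and 20 in both, of 17047. The lists were chosen with results of these data known, and nothing is read from a list's count beyond it.

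**Figure D3:**
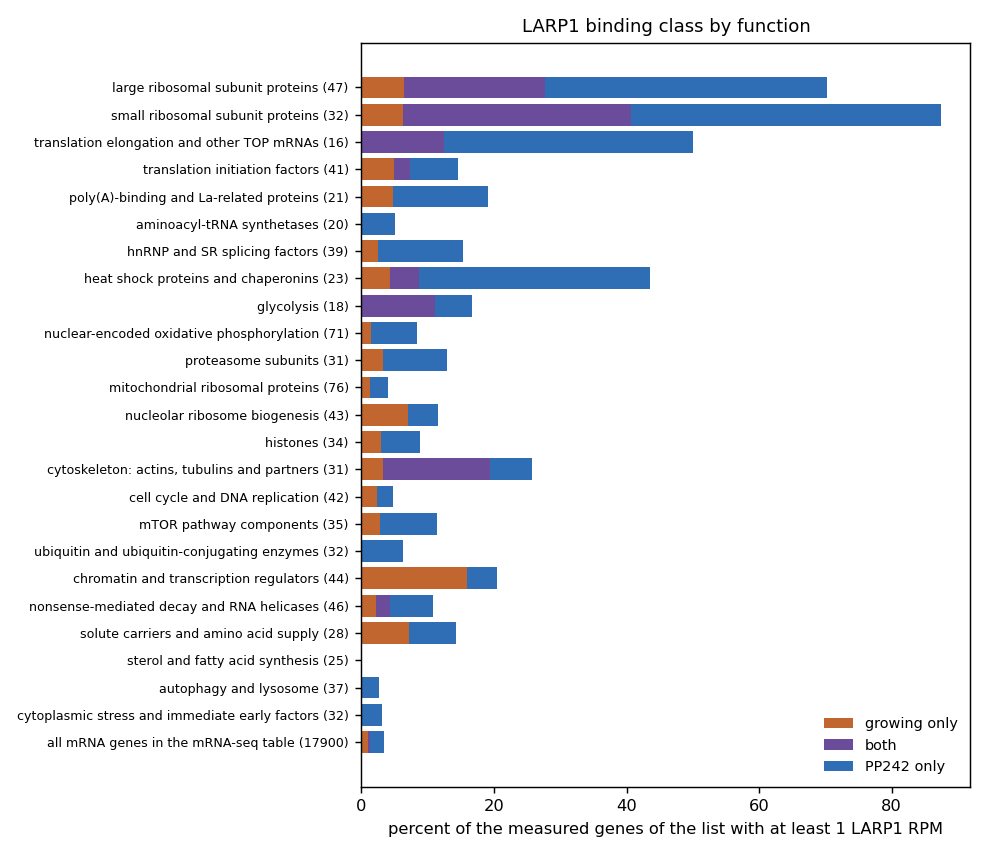
Percentage of the measured genes of each list (horizontal axis) that were bound at or above 1 RPM in growing cells only, after PP242 only or in both, with all 17900 mRNA genes for reference. The ribosomal protein and elongation lists hold the longest bars, and most of their length is PP242 only or both.

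Bound genes were more abundant as mRNAs, and the classes differed in level. At or above 1 RPM the median mRNA level, the mean of 4 libraries in RPKM, was 17.9 for growing-only genes, 33.0 for PP242-only genes and 493 for genes bound in both, against 3.89 over all mRNA genes. With no minimum the medians were 4.81, 7.95 and 7.47 RPKM. Genes at or above 100 RPKM made up 16.2%, 28.6% and 73.6% of the 3 classes, and genes under 1 RPKM 17.9%, 7.14% and 5.66%.

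The share of genes bound in growing cells only changed less with mRNA level than the share bound after PP242 only. Below 1 RPKM, 0.504% of 6355 genes were bound in growing cells only and 0.441% after PP242 only. At 1 to 10 RPKM these shares were 0.659% and 1.12% of 5614 genes, and at 10 to 100 RPKM 1.50% and 3.51% of 5383. At or above 100 RPKM they were 5.29% and 20.4% of 548 genes, and another 7.12% were bound in both. Among these 548 abundant genes, RP genes (79, median 910.2 RPKM) were bound in 32.9% of cases in growing cells and 70.9% after PP242, and the other 469 (median 160.0 RPKM) in 8.96% and 20.3%. At or above 200 RPKM the levels were nearer but still apart, with medians of 943 RPKM for RP genes and 291 RPKM for the others. There 74 RP genes were bound in 33.8% and 73.0% and 155 other genes in 14.8% and 34.2%. These RPM values were not divided by mRNA level. With RPM divided by RPKM, 401 genes were at least 4-fold higher and 195 at least 4-fold lower after PP242, of 618. That count compares conditions within a gene, so it does not bear on the difference in level between RP and other genes.

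**Figure D4:**
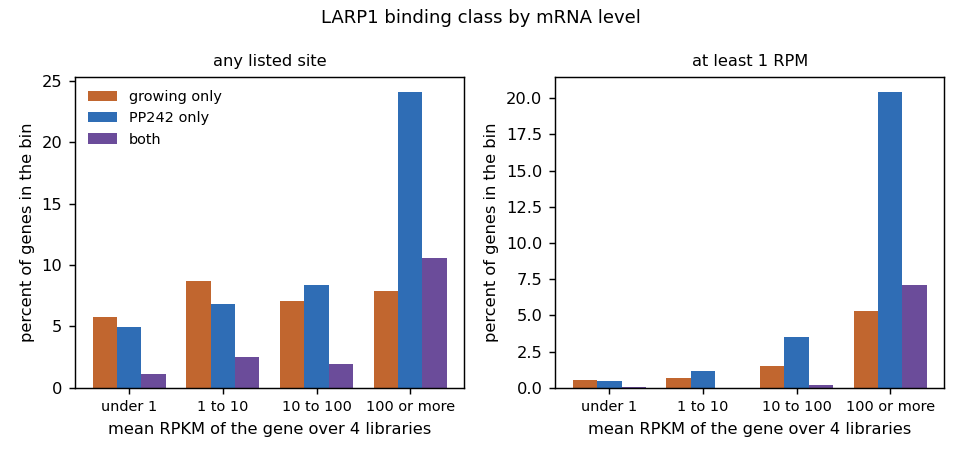
Percentage of mRNA genes (vertical axis) bound at or above 1 RPM in growing cells only, after PP242 only or in both, by bin of mRNA level in RPKM (horizontal axis). The share bound after PP242 only runs from 0.441% below 1 RPKM to 20.4% at or above 100 RPKM, and the growing-only share from 0.504% to 5.29%.

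The sites of the classes lay mostly in the CDS and the 3’UTR. In the growing-only class at or above 1 RPM, 6 of 182 sites (3.30%) were in the 5’UTR, 68 (37.4%) in the CDS and 108 (59.3%) in the 3’UTR. In the PP242-only class these were 22 (4.86%), 163 (36.0%) and 268 (59.2%) of 453 sites. By RPM, 5.04% of the growing-only and 2.39% of the PP242-only signal lay in the 5’UTR, and of the 8701 growing-only RPM there THRAP3 gave 5322 and CDK12 3294. Genes bound in both had 2.95% of their growing and 8.19% of their PP242 RPM in the 5’UTR. Of the 2741.5 growing RPM there, 2711 came from ABCB5, whose site overlaps a stretch shared with U2 snRNA. ABCB5 gave 621 of the 4912 RPM there after PP242.

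At or above 1 RPM, sites of the growing-only class more often carried few of the T-to-C changes that mark crosslinked 4-thiouridine. Of its 182 sites, 117 (64.3%) carried 95 to 105% of the usual T-to-C amount and 56 (30.8%), with 21.5% of the RPM, carried under 5%. Of the 453 PP242-only sites, 362 (79.9%) were at the usual amount and 85 (18.8%), with 6.85% of the RPM, under 5%. Growing-only genes had 1 site in 98.3% of cases and PP242-only genes in 88.4%. Among sites under 1 RPM the order was the other way, with 2.20% of 1682 growing and 17.1% of 1473 PP242 sites under 5%. Keeping only sites with at least 50% of the usual amount left 1339, 1139 and 252 genes listed in growing cells only, after PP242 only and in both, and, together with the 1 RPM minimum (an alternative chosen after seeing the data), 131, 326 and 42 bound genes.

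Some sites were listed at one RPM on several genes. Whether these genes share the sequence beneath was looked up for a few groups only. At or above 1 RPM, 56 of 244 growing sites and 83 of 543 PP242 sites had such a value, and 54 of 236 growing and 61 of 450 PP242 genes had no site of their own. The sequences below are from GENCODE transcripts on GRCh37, with every T in capitals. The PRR23A and olfactory receptor sites were placed by their listed position. In the groups of CNOT1, CD151 and MED14 the site was placed at the only stretch of its length common to transcripts of all genes with its values. Identity within these groups was thus set by the search and was not tested. PRR23A is given first as a site of 1 gene. PRR23A (NM_001134659.1, nucleotides 378 to 395, CDS, chr3:138724716-138724733, minus strand) had 13.5 RPM in growing cells at an mRNA level of 0.0111 RPKM.
PRR23A: TTTccTgggcgcTcTcag
CNOT1 and LHFPL3: aTcTcTaccaTTca
CD151, IL22, PML and TRIM47: cTcaaTaaacacTTg
MED14 and RPS2: acaaaacaccaaaTg
OR5M11, OR10T2 and OR8I2: TcTacagTcTgagg

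CNOT1 (CDS, chr16:58570944-58570957, minus strand), the scaffold of the CCR4-NOT deadenylase, and LHFPL3 (3’UTR, chr7:104547205-104547218, plus strand) were both listed at 67.1 RPM in growing cells, with 0.0102% of the usual T-to-C amount. The 3’UTR sites of CD151 (chr11:838808-838822, plus strand), IL22 (chr12:68642032-68642046, minus strand), PML (chr15:74328710-74328724, plus strand) and TRIM47 (chr17:73870254-73870268, minus strand) were all listed at 12.8 RPM in growing cells. MED14, a Mediator subunit (CDS, exon 20, chrX:40540027-40540041, minus strand), and RPS2 (5’UTR, across exons 1 and 2, chr16:2014624-2014816, minus strand) shared a site of 4.08 RPM after PP242. The olfactory receptor genes OR5M11 (chr11:56309858-56309871, minus strand), OR10T2 (chr1:158368378-158368391, minus strand) and OR8I2 (chr11:55861646-55861659, plus strand) shared a CDS site of 0.0031 RPM in growing cells. Of 73 olfactory receptor genes counted, 25 (34.2%) were listed, 18 in growing and 7 in PP242 cells, against 16.3% of all mRNA genes listed. None was at or above 1 RPM, with highest values of 0.107 and 0.284 RPM. None with a measured mRNA level reached 1 RPKM, and OR5M11, OR10T2 and OR8I2 had no measured level. Olfactory receptors are known for their expression in sensory neurons of the nose.

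ABCB5, a transporter, and TAOK1, a kinase, shared a site that overlaps a stretch also found in U2 snRNA, the spliceosomal RNA. Both were listed at 2711 RPM in growing cells, and at 621 and 1032 RPM after PP242, although ABCB5 mRNA stood at 0.208 RPKM and TAOK1 mRNA at 13.5 RPKM. The site of 22 nucleotides can be placed at 14 positions of the 35 nucleotides that both transcripts share, of which the first 30 are printed with the 9 bases common to every placement in capitals.
ABCB5 and TAOK1: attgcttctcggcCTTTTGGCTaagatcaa
The stretch lies in the 5’UTR of ABCB5 (chr7:20686966-20686995, plus strand) and the 3’UTR of TAOK1 (exon 20, chr17:27870639-27870668, plus strand). A run of 32 nucleotides from its position 4 also occurs in U2 snRNA from nucleotide 4. The U2 site listed at nucleotides 5 to 57 had 1763 RPM in growing cells and 1277 RPM after PP242. Leaving out values shared between genes, together with the 1 RPM minimum, an alternative chosen after seeing the data, gave 139, 348 and 41 genes.

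The mRNAs gained and lost from LARP1 changed little in level. Of 11545 genes tested, 1835 (15.9%) passed an adjusted p of 0.05 in limma on log2(RPKM + 1), 567 (4.91%) higher and 1268 (11.0%) lower after PP242. When each library was centred on its median, the calls were 797 higher and 1104 lower, so 41.9% instead of 30.9% were higher. Of genes listed in growing cells only, 139 of 909 tested (15.3%) passed, 60 higher and 79 lower. Of those listed after PP242 only, 135 of 964 (14.0%) passed, 44 higher and 91 lower, and of genes listed in both 37 of 303 (12.2%), 15 higher and 22 lower. The balance of directions depended on the scaling. With centred libraries the 3 classes had 80 higher and 70 lower, 59 and 78, and 25 and 20, and with the replicate number as a block genes listed in both had 32 and 29. The shares called were near the background of all genes, and the median log2 difference was between 0.00 and 0.01 in each class against -0.01 over all genes tested. The labels do not say that the mRNA-seq libraries came from separate cultures, so these p-values measure only the spread between libraries.

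At or above 1 RPM, 21 of 147 growing-only genes tested passed (10 higher and 11 lower), 45 of 364 PP242-only genes (19 and 26) and 7 of 50 genes bound in both (5 and 2). Of the 377 tested genes with at least 4-fold more LARP1 RPM after PP242, 21 were higher and 26 lower as mRNAs, with a median of 0.01 and no absolute log2 difference above 0.78. Of 162 with at least 4-fold less, 10 were higher and 12 lower, and the greatest absolute difference was 0.64. The counts depended on the libraries. Without growing replicate 1, the genes listed in growing cells only, after PP242 only and in both had 28, 22 and 7 higher and 45, 54 and 11 lower genes. Without PP242 replicate 2 or growing replicate 2 the first 2 classes had 39 and 28 higher genes, without PP242 replicate 1 or growing replicate 2 the PP242-only class had 59 and 60 lower genes, without growing replicate 2 those listed in both had 8 higher, and without PP242 replicate 1 they had 14 lower.

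**Figure D5:**
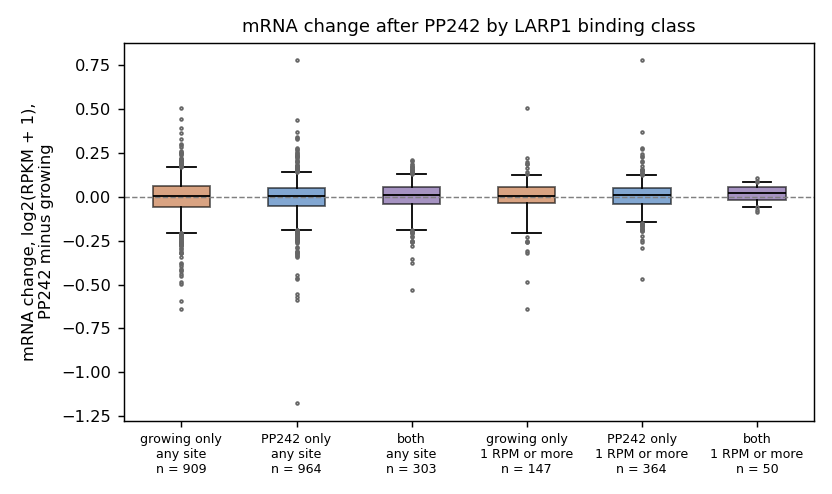
Log2 difference of mRNA level, PP242 minus growing, on the log2(RPKM + 1) scale (vertical axis) for the growing-only, PP242-only and both classes. Each class is drawn with any listed site and at or above 1 RPM. The boxes of the classes lie around 0. The largest difference is RHOB at 0.78 among genes at or above 1 RPM, and ID3 at -1.18 among all listed genes.

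A few genes with a listed site changed as mRNAs. ID3, an inhibitor of bHLH transcription factors, was at 64.4 and 60.7 RPKM in growing and at 27.7 and 26.5 RPKM in PP242 libraries, a log2 difference of -1.18 (SE 0.037, adjusted p = 1.95e-07, limma with Benjamini-Hochberg adjustment). It was the only listed gene to pass with an absolute difference of 1 or more, and its LARP1 site was a trace of 0.0004 RPM after PP242. RHOB, a small GTPase, was at 27.8 and 26.2 RPKM in growing and at 48.6 and 45.7 RPKM in PP242 libraries (log2 difference 0.78, SE 0.040, limma adjusted p = 3.05e-06). RHOB had 609 RPM of LARP1 after PP242 only, from a site with 0.215% of the usual T-to-C amount. CDKN1A, the cyclin-dependent kinase inhibitor p21, was at 13.7 and 13.8 RPKM in growing and at 8.76 and 8.23 RPKM in PP242 libraries (log2 difference -0.64, SE 0.042, limma adjusted p = 1.74e-05). TSC22D3, a glucocorticoid-induced gene, was at 89.4 and 92.1 RPKM in growing and at 130.4 and 128.0 RPKM in PP242 libraries (log2 difference 0.51, SE 0.027, limma adjusted p = 3.85e-06). For these 4 genes the growing and PP242 libraries did not overlap, and the called direction held in every alternative tried. CDKN1A and TSC22D3 carried 18.6 and 78.5 RPM of LARP1 in growing cells only, from leading sites with 0.0237% and 0.324% of the usual T-to-C amount.

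Among further genes with high LARP1 RPM, those named next had log2 mRNA differences between -0.48 and 0.37. DEPDC1, a mitotic gene with 853 RPM after PP242 only, had a log2 mRNA difference of 0.37 (limma adjusted p = 0.000183). EIF4A2 had 0.20 (limma adjusted p = 0.000757), VIM 0.17 (0.000861), HMGB2 0.20 (0.000426) and SPTAN1 0.19 (0.00236). RRS1 had -0.48 (limma adjusted p = 2.51e-05). HSP90B1 had 0.10 (limma adjusted p = 0.0138, 0.0791 without growing replicate 1), PABPC1 0.09 (0.0242, 0.129 without growing replicate 1) and EEF1A1 0.07 (0.0351, 0.144 without growing replicate 2). EEF1A1 also lost the limma call without PP242 replicate 2 (adjusted p = 0.0890) or growing replicate 1 (0.111), PABPC1 without PP242 replicate 1 (0.0666) or 2 (0.0561), and all 3 genes without the RPKM filter (0.0939 to 0.244). Among all 79 RP genes, 5 rose and 0 fell as mRNAs, with a median log2 difference of 0.04 (8 and 0 with each library centred), where 4.91% of all genes tested were called higher. Among the 16 elongation and other TOP genes, 7 rose and 0 fell (8 and 0 when centred). Their shares were not compared with that background by a test. Histone genes had 13 of 19 tested mRNAs higher and 0 lower, and the same counts when centred. Of the 3 bound histone genes, H3F3A (log2 difference 0.003, limma adjusted p = 0.936) and H3F3B (0.035, 0.395) were not called as mRNAs. The mRNA change of the other, H2AFY, is not reported here.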

How the data were processed

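LARP1 PAR-CLIP sites (1 library per condition) and mRNA-seq levels (2 per condition) of HEK293T cells were taken as deposited. For PAR-CLIP the authors mapped reads to the GRCh37 transcriptome with Bowtie, allowing 3 mismatches, and clustered reads with and without T-to-C changes. They kept clusters with at least 1 converted read and deposited each site in RPM. The paper also describes an empirical RPM threshold for its sites, and reports fewer bound mRNAs in each condition than the genes listed here. Whether the deposited sites had passed that threshold was not settled. The deposited ratio of site RPM to transcript RPKM was not used. The deposited T-to-C score has no stated scale. It was a fixed multiple of RPM at most sites (25.8 in growing, 28.3 after PP242), and is given here as a percentage of RPM times that multiple. For mRNA-seq the authors deposited RPKM per transcript from perfectly matching reads, dividing multi-mapping reads evenly; total read counts, and so depth, are not given in the sources used here.

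Of 5179 mRNA accessions with a site, 4700 were named from the mRNA-seq table, 408 from RefSeq, and 71 kept their accession. RPM was summed per gene, and RPKM over a gene's transcripts. limma 3.58.1 (R 4.3.3) with a trend was fitted to log2(RPKM + 1) for the 11545 genes whose mean reached 1 RPKM, and p-values were adjusted over all of them (Benjamini-Hochberg, threshold 0.05). An exact permutation test of 2 against 2 libraries cannot go below 0.333. Applied to simulated data of 11545 genes for this comparison, the fit recovered 200 of 200 changed genes, with 9 false calls among the unchanged genes. The planted changes were larger than most log2 differences named here, so recovery of smaller ones was not tested. Python 3.11.15 with pandas 2.3.3, numpy 2.4.6 and matplotlib 3.10.9 was used otherwise. Site sequences were read from GENCODE v44 transcripts lifted to GRCh37.

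Named were the 8 genes with the highest RPM of each class, the 6 largest and 6 smallest ratios among genes of at least 10 RPM listed in both, the 3 largest mRNA rises and falls per class, PABPC1, LARP1 and EEF1A1, and the 2 highest genes of each of 24 function lists. Other names were chosen after their values were seen. Members and lists were chosen with earlier results of these data known. Alternatives covered the RPM minimum, shared values, the T-to-C amount (at least 50% of usual), RPM divided by RPKM, the transcript used, the mRNA filter, pseudocount, centring, replicate block and leaving out each library.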

Additional observations from a re-analysis of the deposited data

Results flagged for a closer look

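Sites on noncoding accessions, which enter none of the mRNA classes, held a signal of their own with no control library to set beside it. With each RPM value counted once, they summed to 98145 RPM on 394 genes in growing cells and to 106052 RPM on 399 genes after PP242, which is 27.0% and 27.1% of all listed RPM.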

How the results depend on the processing

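With minima of 0.1, 1 and 10 RPM the growing-only, PP242-only and both classes held 257, 597 and 74 genes, 182, 396 and 54, and 135, 347 and 44. Leaving out values shared between genes gave 409, 675 and 155, and the T-to-C filter 252 genes in both. Combined with the 1 RPM minimum, these gave 139, 348 and 41 genes, and 131, 326 and 42 (both chosen after seeing the data). With no minimum, the growing-only genes held 55.5% of the growing RPM and the PP242-only genes 70.6% of the PP242 RPM. The growing-only share was 55.8% with every row counted, 59.8% without shared values and 58.6% with the T-to-C filter. The PP242-only share was 68.9%, 75.7% and 73.4% in the same order, and 70.5% with the top transcript. The counts of genes past 4-fold stayed within 1.5 times. Median RPKM of the classes was 3.18, 5.02 and 5.10 with the highest transcript, and 17.9, 33.0 and 493 at 1 RPM. mRNA calls, higher and lower, were 338 and 721 with a filter of 10 RPKM and 149 and 409 with none, and ranged from 333 to 452 and from 780 to 1107 when 1 library was left out, the lowest without growing replicate 1. By class, leaving out 1 library gave 28 to 45 and 45 to 63 (growing only), 22 to 35 and 54 to 76 (PP242 only), and 7 to 13 and 11 to 20 (both). With the replicate number as a block the mRNA calls over all genes were 765 and 1516. Same-numbered deviations had r = 0.0943 across 11545 genes over 2 pairs. The labels give only a number, and 1 deviation per condition cannot tell whether same-numbered libraries were handled together. The 30 named genes called kept their sign in 291 of 291 alternative values and lost the call in 33; the 58 not called changed sign in 30 of 575 and gained a call in 9. The cause was not tested. With 1 PAR-CLIP library per condition, absence from a list cannot be told from shallow sampling.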
